A study of Mus musculus with 18 samples.

Results

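Semaphorins are guidance cues that steer growing axons and migrating neurons, and plexins and neuropilins are the receptors that bind them. The 10 genes described here are the ligands Sema3a, Sema3c, Sema6a and Sema6d, the receptors Plxna1, Plxna2, Plxna3 and Plxna4, and the co-receptors Nrp1 and Nrp2. They were chosen by gene symbol, from 23038 symbols in a table of expected counts for mouse cortex, and all 10 were found and passed the filter on low counts. A further table listed 1991 alternative splicing events that depend on NOVA2, of which 8 belonged to these genes. All 8 were in Sema6d. The other 9 members had no event in that list, and the share of all genes with a listed event is not given here.

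NOVA1 and NOVA2 are neuronal RNA-binding proteins that control alternative splicing, and the study asked what each does in the developing brain by removing one or the other. RNA was taken from cortex at embryonic day 18.5 (E18.5), from 3 mice in each of 4 groups. The groups were Nova2-/- mice, their wild-type littermates (wild-type replicates 1 to 3), Nova1-/- mice and their wild-type littermates (wild-type replicates 4 to 6), all labelled with the CD1 strain background. The Nova2 null allele carries an IRES-Cre insertion at the first coding exon, and both are knockouts of the whole animal. For Nova1-/- midbrain and hindbrain, only splicing values are described. Total counts ran from 16518172 to 31362018 per mouse. The lowest total was that of wild-type replicate 2, in which 21791 genes had a count, against 18397 to 19396 in the other cortices. In Nova1-/- cortex Nova1 fell by 9.06 on the log2 scale, from 41.4 to 75.8 CPM (counts scaled to library totals that are corrected by TMM) in wild type to 0.0340 to 0.211. In Nova2-/- cortex Nova2 fell by 0.87 on the log2 scale, from 31.5 to 40.8 CPM to between 17 and 21.6 CPM, so transcripts counted for Nova2 were still present. Cortical excitatory neuron markers (9 genes, among them Tbr1 and Neurod6) summed to 805 to 1012 CPM over the 12 cortices, and 6 of 10 markers of thalamus, midbrain and hindbrain had at most 10 counts in every cortex. The sum of these 10 markers was 20.0 CPM in wild-type replicate 3 and 20.7 CPM in Nova2-/- replicate 3, against 7.34 to 15.0 CPM in the other 10 cortices.

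Secreted semaphorins such as SEMA3A and SEMA3C bind a neuropilin, which presents them to an A-type plexin, and the plexin then passes the signal into the cell. Transmembrane semaphorins such as SEMA6A and SEMA6D bind A-type plexins directly, without a neuropilin. In the developing cortex these cues orient dendrites and axons, place the corpus callosum and the corticofugal tracts, and guide migrating neurons.

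In the mm9 annotation, Sema3a (chr5:13125593-13602565) and Sema3c (chr5:17080099-17236086) lie on the same chromosome. Plxna1 (chr6:89266310-89312607) and Plxna4 (chr6:32094565-32538192) share a chromosome, as do Plxna2 (chr1:196446023-196643063) and Nrp2 (chr1:62749859-62865269). Plxna3 is X-linked (chrX:71574405-71590028), and Nrp1 is at chr8:130882973-131029362.

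The splicing finding rests on 2 alternative exons of Sema6d, whose sequences are shown here because every named event includes or skips one of them. Sema6d lies on the forward strand of chromosome 2 (chr2:123915705-124493506, mm9). The exons lie in the intron between an upstream coding exon that ends at position 124486080 and the last exon, which starts at position 124489757. The first is an exon of 57 nt (chr2:124486441-124486497). The second starts at position 124487940 and has a longer form of 168 nt (chr2:124487940-124488107) and a shorter form of 156 nt (chr2:124487940-124488095), which differ by the use of a donor site 12 nt apart. NOVA proteins bind short RNA motifs made of CA between pyrimidines. Capitals mark these motifs, which are CCAT and CCAC or else TCAT and TCAC in the letters of the genome, on the sense strand. The sequences were read 5′ to 3′ from the mm9 genome, and each flank holds the 100 nt of intron next to the exon.
57-nt exon, upstream flank (chr2:124486341-124486440): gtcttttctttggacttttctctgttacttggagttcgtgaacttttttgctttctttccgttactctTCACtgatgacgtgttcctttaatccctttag
57-nt exon: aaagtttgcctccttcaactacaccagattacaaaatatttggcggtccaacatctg
57-nt exon, downstream flank (chr2:124486498-124486597): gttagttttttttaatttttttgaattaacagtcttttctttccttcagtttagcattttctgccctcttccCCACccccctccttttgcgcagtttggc
168-nt exon, upstream flank (chr2:124487840-124487939): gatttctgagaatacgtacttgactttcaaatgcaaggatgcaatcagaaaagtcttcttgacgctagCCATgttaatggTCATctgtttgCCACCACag
168-nt exon: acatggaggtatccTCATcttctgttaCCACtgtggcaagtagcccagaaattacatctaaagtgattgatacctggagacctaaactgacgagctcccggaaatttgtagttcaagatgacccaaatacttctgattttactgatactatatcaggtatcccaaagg
168-nt exon, downstream flank (chr2:124488108-124488207): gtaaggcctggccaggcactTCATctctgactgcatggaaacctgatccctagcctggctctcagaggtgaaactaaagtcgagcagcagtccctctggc

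The 57-nt exon held none of these motifs, and the longer exon held 2. In the 200 nt upstream of the 57-nt exon there were 2, and 83% of 177725 annotated internal exons in mm9 had at least as many there. The 200 nt downstream of it held 5, and 23.3% of internal exons had at least as many. The second exon had 5 in the 200 nt upstream and 4 in the 200 nt downstream of either donor, where 25.9% and 39.7% of internal exons had at least as many. The median over internal exons was 3 on either side. Of the upstream matches, 4 lie within the 100 nt shown, close to the acceptor. The listed events were selected by the study partly for such motifs in NOVA2-bound clusters, so their presence is not an independent observation, and a match of letters is not a binding site.

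Both exons keep the reading frame. The 57-nt exon is 19 codons long, and the second exon is 56 or 52 codons long, with no base left over. Among 8 annotated coding transcripts of Sema6d, proteins of 998 and of 1011 residues have neither exon, and one of 1073 residues has the 57-nt and 168-nt exons. Those with the 57-nt exon alone or the 168-nt exon alone have 1030 and 1054 residues, and the form with 57 nt and 156 nt has 1069. The forms of 998 and 1011 residues differ in length before the last exon. Forms can therefore differ in length by more than the alternative exons shown here. The first 40 residues of each protein were not scanned for hydrophobic stretches. In the rest of each protein the most hydrophobic window of 19 residues starts 18 residues after the beginning of the last exon (residues 663 to 681 of the longest form), with a mean hydropathy of 2.63 on the Kyte-Doolittle scale. SEMA6D is a protein with a single transmembrane segment, and both alternative exons are encoded before that window, on the side of the extracellular domain.

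**Figure D1:**
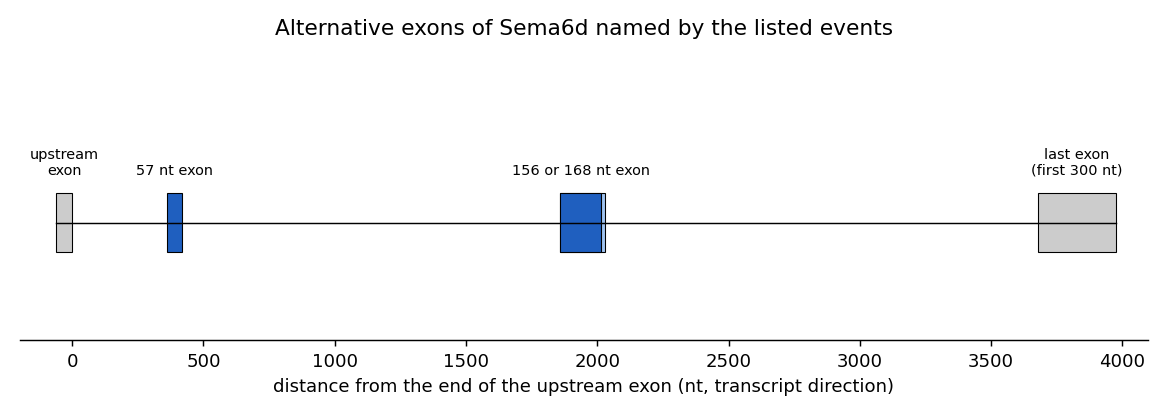
Alternative exons of Sema6d named by the listed events, drawn to scale along the transcript, with the distance in nt from the end of the upstream exon on the horizontal axis. Grey boxes are the flanking exons (only the first stretch of the last exon), blue boxes are the alternative exons, and the pale strip is the 12 nt by which the 168-nt form exceeds the 156-nt form.

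In Nova2-/- cortex, ΔI was above 0 in all 8 listed Sema6d events, that is, inclusion was lower than in wild type. The measure is ΔI, the authors' deposited fraction of inclusion in wild type minus that in knockout, with 1 value per event and no replicates or read counts, so that its depth and error are unknown. The ΔI in Nova2-/- cortex was used to list the events, and it is given as a description. The 57-nt exon alone had a ΔI of 0.196 and the 168-nt exon alone also had a ΔI of 0.196. The 57-nt exon in tandem with the 168-nt exon had 0.192, and in tandem with the 156-nt exon 0.140. The event with the shorter second exon had the smallest of these 4 ΔI values. The other 4 events, 2 cassette and 2 tandem cassette events whose names give no exon positions, had ΔI from 0.117 to 0.158. The 8 events lie on 2 overlapping spans that both start at position 124486019 and end at 124493506 or 124493508, so they share junction reads and are not 8 separate measurements. Their median was 0.149, beside a median size of 0.223 over all 1991 events, and 57.8% of all events had a larger size than the highest Sema6d event.

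In Nova1-/- midbrain and hindbrain, the ΔI of the Sema6d events had the sign it had in Nova2-/- cortex. These values carry no error and were not tested here, and the authors' FDR for them was not used. Among NOVA2-regulated genes of an axon guidance pathway, the paper reports a significant change in this tissue only for a Robo2 exon. Whether Sema6d was in that pathway set is not stated in its text. Beyond that pathway, the paper reports that further listed events changed in this tissue at its thresholds on ΔI and FDR. Its text does not say whether Sema6d was among them. All 8 Sema6d events had ΔI above 0, from 0.0822 to 0.156 with a median of 0.128, and 57.7% of all listed events had the direction of Nova2-/- cortex there. The 57-nt exon alone had a ΔI of 0.128, the 168-nt exon alone 0.148, the 57-nt and 168-nt tandem 0.128 and the 57-nt and 156-nt tandem 0.132. In size, 6 of the 8 events were at least 0.1 in size, where 15.9% of all events reached that size in this tissue and 10.8% did so in the direction of Nova2-/- cortex.

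In Nova1-/- cortex, most Sema6d events had the opposite direction, with more inclusion in the knockout than in wild type. ΔI was below 0 in 6 events and above 0 in 2, and 56% of all events had the opposite direction. The 57-nt exon alone had a ΔI of -0.217, the 57-nt and 156-nt tandem -0.168 and the 57-nt and 168-nt tandem -0.135, whereas the 168-nt exon alone had 0.0358. The 3 named events that contain the 57-nt exon were thus those below 0, and the named event without it was the one above 0. Of the events with no exon positions, 3 had ΔI from -0.140 to -0.0606 and 1 had 0.00674. In size, 5 of the 8 were at least 0.1, where 11.1% of all 1984 events with a value reached that size and 7.81% did so opposite to Nova2-/- cortex. With no replicate values, the difference between the knockouts in ΔI was not tested.

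**Figure D2:**
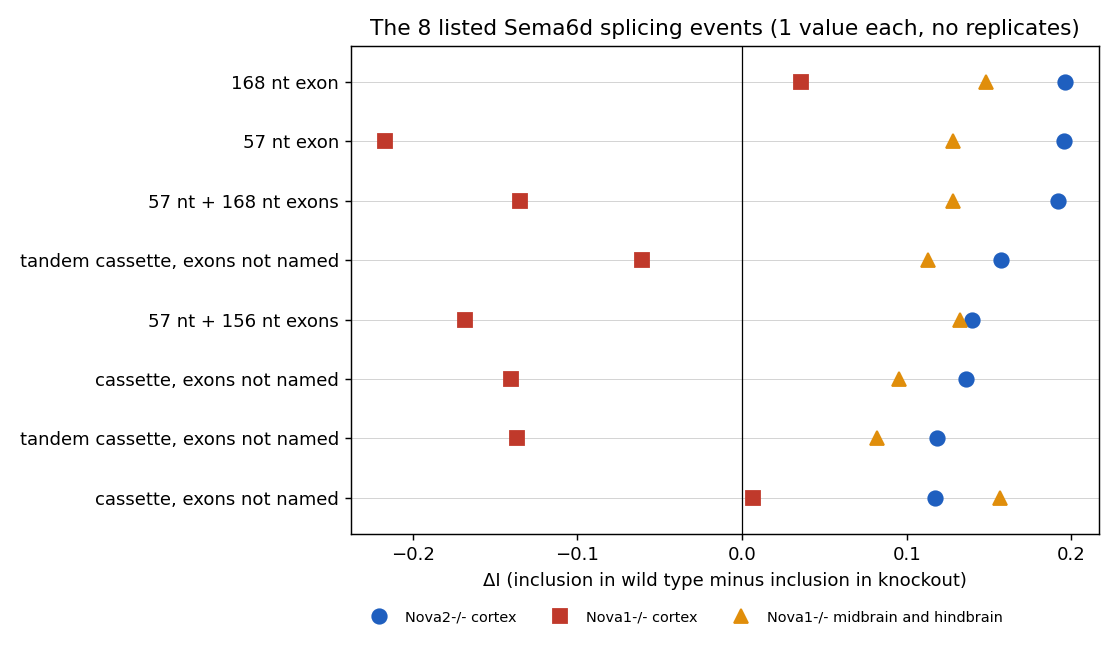
ΔI of the 8 listed Sema6d events, 1 row per event, with inclusion in wild type minus inclusion in knockout on the horizontal axis. Circles stand for Nova2-/- cortex and squares for Nova1-/- cortex, and triangles show Nova1-/- midbrain and hindbrain. Circles and triangles lie above 0 in every row, and 6 of 8 squares lie below 0.

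The members differed in abundance over a range that held in all 4 groups. To compare genes, CPM was divided by the length of the annotated exons of each gene in kilobases (kb). Nrp1 had the highest level, with 50.9 ± 3.73 CPM per kb (SD, n = 12 mice), followed by Plxna2 with 44.7 ± 3.37 and Plxna4 with 33.1 ± 2.99. Sema3c (31.1 ± 7.12), Plxna3 (24.4 ± 3.17), Plxna1 (22.9 ± 2.44) and Nrp2 (21.6 ± 3.30) came next in CPM per kb. The lowest levels were those of Sema6d (12.6 ± 1.31), Sema3a (11.7 ± 0.714) and Sema6a (10.5 ± 1.69). Of the 9 pairs of neighbours in this order, the ranges of 12 mice overlapped in all but the pair Nrp2 and Sema6d. Within single mice, Plxna2 was above Plxna4 in 12 of 12 and Nrp2 above Sema6d in 12 of 12, and the other 7 pairs kept their order in 8 to 10 of 12 mice. A-type plexins and neuropilins thus had higher levels per kb than 3 of the 4 ligands, with Sema3c among the receptors. The mean of Sema3c was 37.19 CPM per kb in wild type and 35.65 in Nova2-/- cortex of the Nova2 litters. In the Nova1 litters it was 25.38 in wild type and 26.16 in Nova1-/- cortex. The annotation behind the counts is not known, so the exon lengths used here may differ from those counted.

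**Figure D3:**
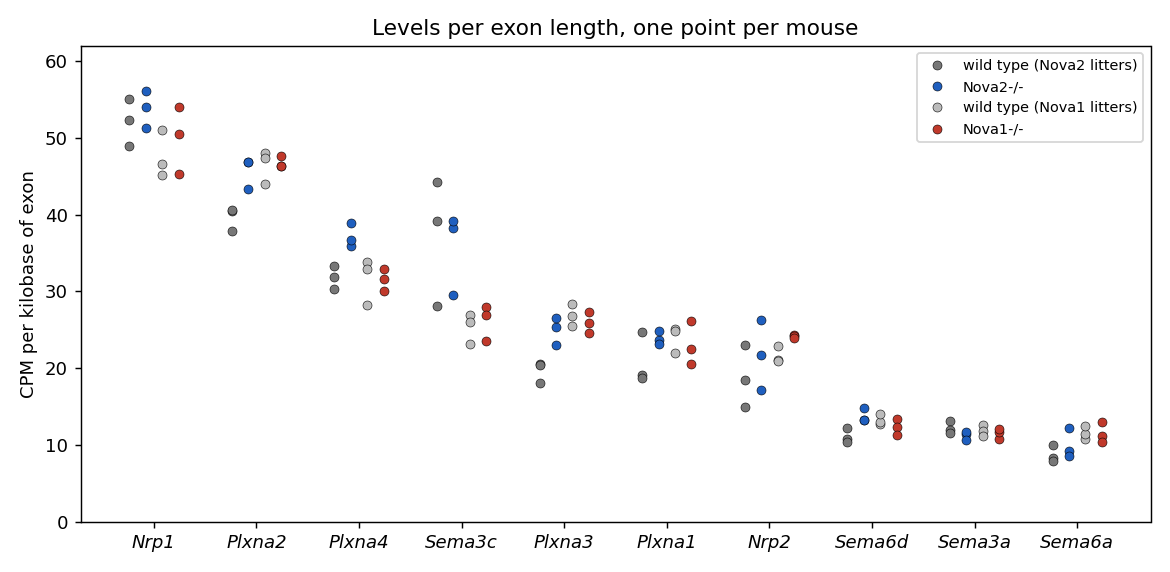
CPM per kilobase of exon of the 10 members on a linear axis, 1 point per mouse, ordered by the mean over 12 cortices and coloured by group. Nrp1 and Plxna2 are highest, and Sema6d, Sema3a and Sema6a lie lowest, at no more than 14.8 CPM per kb.

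In Nova2-/- cortex no member was called changed at a false discovery rate (FDR) of 0.05 and a log2 fold change of 1, and transcripts of 4 members, Sema6d, Plxna2, Plxna3 and Plxna4, were above wild-type littermates in every mouse. With edgeR's quasi-likelihood test and Benjamini-Hochberg adjustment, 0 of 10 members were called, where 0.261% of 15691 genes were, and 0 of 10 had an FDR under 0.05 at any fold change, where 1.06% of genes had one. At an unadjusted p under 0.05, 4 of 10 members were higher and 0 lower, where 10.1% of genes were higher. Separate groups of mice, higher in the knockout, occurred in the same 4 members and in 13.5% of genes. The estimate was above 0 in 8 of 10 members and in 51.8% of genes, with a median log2 fold change of 0.21 for the members and 0.01 for all genes. With DESeq2, no member was called at both thresholds, and 3 had an FDR under 0.05 at any fold change (Plxna3, Sema6d and Plxna4), where 5.85% of genes had one. The 10 members share mice and act in one pathway, so their counts are not independent.

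Among the transmembrane ligands, Sema6d gave 113, 110 and 129 CPM in the wild-type littermates and 140, 140 and 156 CPM in Nova2-/- cortex. All 3 knockout mice lay above all 3 wild-type mice, and the log2 fold change was 0.32 ± 0.0864 (SE; 95% interval 0.122 to 0.516, adjusted p = 0.113). Sema6d is also the member with the listed splicing events. Sema6a, which repels migrating neurons and axons that carry PLXNA2 or PLXNA4, gave 72.9, 69.5 and 87.6 CPM in wild type and 80.7, 74.4 and 106 CPM in Nova2-/- cortex. These groups overlapped, with a log2 fold change of 0.20 ± 0.147 (adjusted p = 0.511), which was 0.0244 without Nova2-/- replicate 3 and 0.308 without wild-type replicate 3.

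The secreted ligands had estimates below 0. Sema3a, a repellent of cortical axons, gave 133, 120 and 116 CPM in wild type and 115, 118 and 108 CPM in Nova2-/- cortex, with overlapping groups and a log2 fold change of -0.10 ± 0.0717 (interval -0.266 to 0.0611, adjusted p = 0.476). Sema3c, which attracts cortical axons toward the corpus callosum, gave 317, 279 and 201 CPM in wild type and 273, 280 and 211 CPM in the knockout. In each group replicate 3 was the lowest, and the log2 fold change was -0.05 ± 0.164 (interval -0.423 to 0.327, adjusted p = 0.904). This interval is wide enough to hold a change of either direction.

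The A-type plexins, the receptors through which these ligands signal, all had estimates above 0. Plxna3, which encodes the receptor used with NRP2 for SEMA3F, had the smallest p of the 10. It gave 162, 161 and 143 CPM in wild type and 182, 200 and 209 CPM in Nova2-/- cortex, with an estimate of 0.36 ± 0.0778 on the log2 scale (interval 0.179 to 0.534, adjusted p = 0.0756). Plxna4, a receptor for SEMA3A and SEMA6A, gave 382, 401 and 419 CPM in wild type and 452, 489 and 462 CPM in the knockout (0.23 ± 0.0680, interval 0.0792 to 0.389, adjusted p = 0.129). In both genes the groups did not overlap. Plxna2, also a receptor for SEMA6A, gave 572, 611 and 614 CPM in wild type and 654, 707 and 707 CPM in the knockout, again without overlap (0.21 ± 0.0699, adjusted p = 0.161). Plxna1, a receptor for SEMA3A and SEMA6D, gave 172, 169 and 223 CPM in wild type and 213, 209 and 224 CPM in the knockout (0.21 ± 0.109, adjusted p = 0.339). For Plxna1, wild-type replicate 3 lay among the knockout mice.

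The neuropilins had overlapping groups. Nrp1, the co-receptor for SEMA3A, gave 325, 309 and 289 CPM in wild type and 331, 319 and 303 CPM in Nova2-/- cortex (0.06 ± 0.0666, interval -0.0944 to 0.210, adjusted p = 0.680). Nrp2, the co-receptor for SEMA3F, gave 176, 142 and 219 CPM in wild type and 206, 163 and 249 CPM in the knockout (0.21 ± 0.184, interval -0.205 to 0.634, adjusted p = 0.566). The spread among the mice of each group was larger than the difference between the groups. In both genes each Nova2-/- mouse lay above the wild-type mouse of the same replicate number. The share of all genes with this order was not computed, and pairing by number was not assumed. For Nrp2 the estimate was 0.0535 without Nova2-/- replicate 3 and 0.392 without wild-type replicate 3. The ratio of Nrp1 to Nrp2 counts ran from 1.32 to 2.18 in wild type and from 1.22 to 1.95 in Nova2-/- cortex.

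Leaving out wild-type replicate 3 of the Nova2 litters changed these calls. Without it, 4 members had an FDR under 0.05 at any fold change by edgeR's quasi-likelihood test, Plxna1 (log2 fold change 0.355, adjusted p = 0.00937), Plxna3 (0.304, adjusted p = 0.0336), Plxna4 (0.272, adjusted p = 0.0320) and Sema6d (0.398, adjusted p = 0.0125). The share of all genes at that threshold then rose from 1.06% to 9.03%. Without any 1 of the other 5 mice no member reached it, where only 0.0439% to 0.164% of all genes did. None of these changes reached a log2 fold change of 1.

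**Figure D4:**
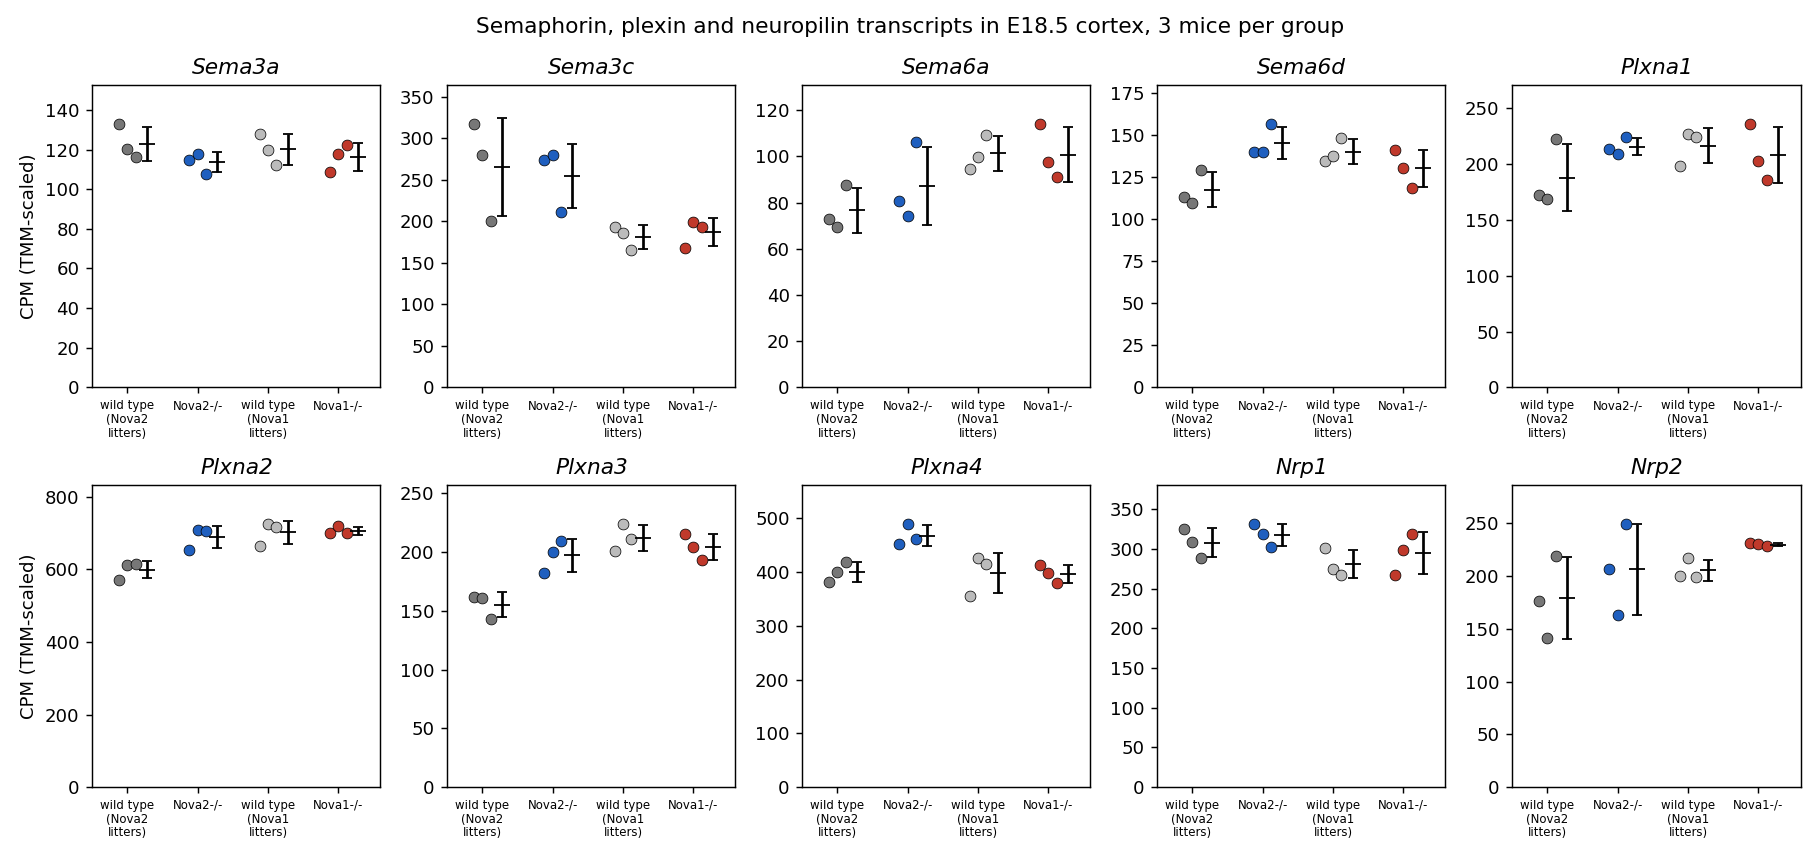
CPM on TMM-scaled library sizes for the 10 members in E18.5 cortex, 1 point per mouse, on linear axes from 0, with the mean and SD (n = 3) beside each group. By mean, Sema6d, Plxna2, Plxna3, Sema6a, Plxna1 and Nrp2 are lowest in the wild-type littermates of Nova2-/- mice. For Sema6d, Plxna2 and Plxna3 the other 3 groups lie close together.

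In Nova1-/- cortex, members stayed near the levels of their wild-type littermates, and Nrp2 was the exception by unadjusted p. With edgeR's quasi-likelihood test and Benjamini-Hochberg adjustment, 0 of 10 members were called at either threshold, where 0.0126% of 15901 genes were. At an unadjusted p under 0.05, 1 of 10 was found, where 7.44% of genes were (3.77% higher), and DESeq2 gave 0 of 10 with an FDR under 0.05, where 0.265% of genes had one. The median log2 fold change was -0.01 for the members and 0.00 for all genes. Nrp2 gave 200, 217 and 199 CPM in wild type and 231, 230 and 228 CPM in Nova1-/- cortex, with separate groups (0.16 ± 0.0519, interval 0.0503 to 0.278, adjusted p = 0.522). Such separation, higher in the knockout, was found in 1 of 10 members and in 6.69% of genes. Sema6d gave 135, 137 and 148 CPM in wild type and 141, 130 and 119 CPM in Nova1-/- cortex (-0.11 ± 0.0690, interval -0.258 to 0.0450, adjusted p = 0.781). The other 8 members had log2 fold changes from -0.06 (Plxna1) to 0.07 (Nrp1), with overlapping groups and adjusted p of at least 0.868. For Plxna2, with 664, 724 and 716 CPM in wild type and 701, 719 and 699 CPM in the knockout, the estimate was 0.01 ± 0.0507.

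The difference between the knockouts was itself tested, by subtracting the Nova1-/- change from the Nova2-/- change. This contrast uses the same 12 mice as both comparisons above and repeats their values. No member was called, where 0.697% of 16210 genes were, 0 of 10 had an FDR under 0.05 at any fold change, where 1.83% had one, and 4 were higher at an unadjusted p under 0.05, where 9.08% were. DESeq2 gave 2 members with an FDR under 0.05 at any fold change, Plxna3 and Sema6d, where 5.6% of genes had one. By edgeR's quasi-likelihood test, the difference was 0.40 ± 0.102 for Plxna3 (interval 0.177 to 0.616, adjusted p = 0.0647) and 0.41 ± 0.115 for Sema6d (interval 0.167 to 0.660, adjusted p = 0.0814). It was 0.23 ± 0.101 for Plxna4 (adjusted p = 0.249) and 0.19 ± 0.0828 for Plxna2 (adjusted p = 0.239).

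**Figure D5:**
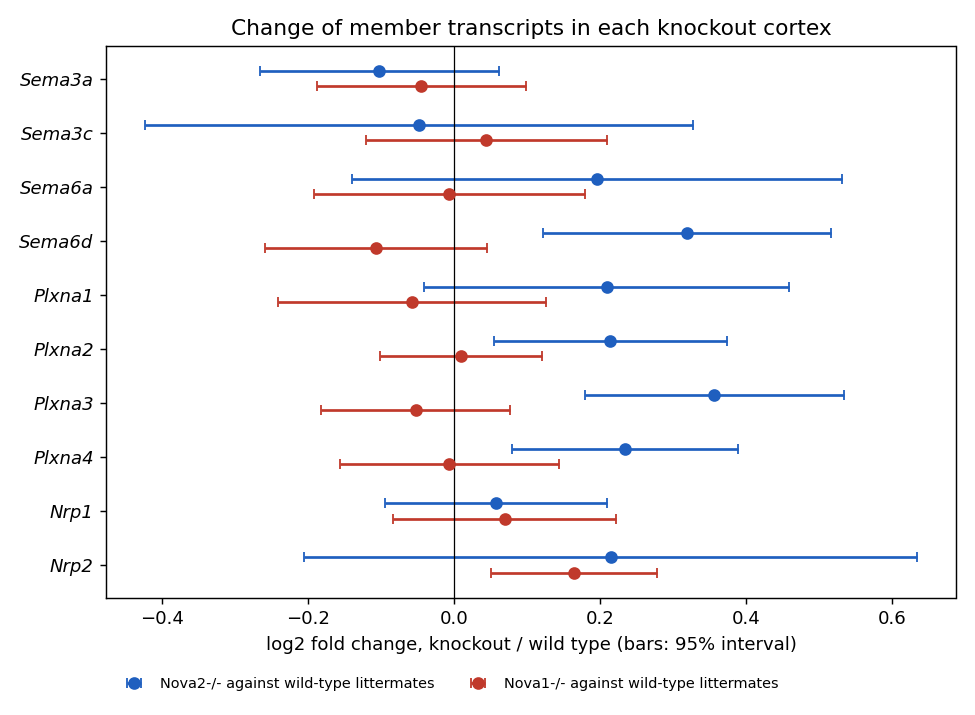
Log2 fold change of each member in Nova2-/- (blue) and Nova1-/- (red) cortex against wild-type littermates, with 95% intervals from the edgeR fit. Only for Sema6d, Plxna2, Plxna3 and Plxna4 does the Nova2-/- interval lie above 0, and for Nrp2 the Nova1-/- interval.

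The wild-type cortices of the 2 sets of litters also differed from each other in these genes. Relative to the wild-type littermates of Nova1-/- mice, those of Nova2-/- mice were lower in Plxna3 by a log2 fold change of -0.46 ± 0.0730 (edgeR's quasi-likelihood test, adjusted p = 0.0226), with 201, 224 and 211 CPM against 162, 161 and 143 CPM. Plxna3 was the 1 member of 10 with an FDR under 0.05 at any fold change, where 3.03% of 15918 genes had one. Its adjusted p was above 0.05 (up to 0.140) in each of the 5 fits that left out 1 mouse other than wild-type replicate 3. In those fits only 0.0187% to 0.566% of all genes had an FDR under 0.05. DESeq2 gave 4 members at that threshold (Plxna2, Plxna3, Sema3c and Sema6a), where 8.78% of genes reached it, and edgeR without wild-type replicate 3 gave 7, where 22.3% did. In all, 0 of 10 were called at both thresholds, where 0.647% were, and 5 of 10 had an unadjusted p under 0.05, where 21.1% did. Sema6a (-0.41 ± 0.103, adjusted p = 0.0652), Sema6d (-0.26 ± 0.0829, adjusted p = 0.115) and Plxna2 (-0.24 ± 0.0687, adjusted p = 0.0921) were on the lower side, and Sema3c (0.54 ± 0.144, adjusted p = 0.0773) was on the higher side. Sema3c gave 193, 186 and 165 CPM in the Nova1 litters, below each of the 3 wild-type mice of the Nova2 litters. The share of all genes with such separation between the wild types is not given here.

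Set side by side, the Nova2-/- levels of Sema6d (140 to 156 CPM), Plxna2 (654 to 707 CPM) and Plxna3 (182 to 209 CPM) overlapped those of the wild-type Nova1 litters (135 to 148, 664 to 724 and 201 to 224 CPM). Plxna4 was the exception, with 452 to 489 CPM in Nova2-/- cortex above 356 to 426 CPM in the wild-type Nova1 litters and 382 to 419 CPM in the wild-type Nova2 litters. The share of all genes with Nova2-/- mice above both sets of wild types was not computed. In a fit chosen after the data were seen, with all 6 wild-type mice as controls, the log2 fold change in Nova2-/- cortex was 0.23 ± 0.0686 for Plxna4 (edgeR, adjusted p = 0.103), 0.18 ± 0.0973 for Sema6d (adjusted p = 0.349), 0.09 ± 0.0857 for Plxna2 (adjusted p = 0.624) and 0.10 ± 0.133 for Plxna3 (adjusted p = 0.714). The deposited counts also differed between the sets of litters in form, with 7.48% to 11.7% of values not whole in the Nova2 litters and 18.6% to 20% in the Nova1 litters, and the part of this in the comparison of wild types was not tested. Where wild-type mice of the Nova1 litters enter the control, genotype and the set of litters cannot be told apart.

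Markers of other cells moved with these groups. The summed level of 12 meningeal fibroblast genes, which include the collagens Col1a1, Col1a2 and Col3a1, was 229, 302 and 577 CPM in the wild-type Nova2 litters and 979, 889 and 1080 CPM in Nova2-/- cortex. It was 916, 804 and 1011 CPM in the wild-type Nova1 litters and 756, 823 and 692 CPM in Nova1-/- cortex. None of the 12 was at 0, and in Nova2-/- cortex 10 of 12 had an unadjusted p under 0.05, all higher, where 10.1% of all genes were, with a median log2 fold change of 1.34 against 0.01 for all genes. Mural cell markers (7 genes) summed to 118 to 148 CPM in the wild-type Nova2 litters, 169 to 179 in Nova2-/- cortex, 138 to 146 in the wild-type Nova1 litters and 135 to 142 in Nova1-/- cortex. Microglia and macrophage markers (10 genes) summed to 86.0 to 113 CPM, 126 to 154 CPM, 151 to 155 CPM and 134 to 146 CPM in the same order. The microglial sum was carried by part of its list. In Nova2-/- cortex 4 of its 10 genes had estimates above 0, with a median log2 fold change of -0.02, and Mrc1, a marker of border macrophages, had the largest, from 27.9 ± 15.0 CPM in wild type to 60.2 ± 6.47 CPM (SD, n = 3). The meningeal sum was lowest in the wild-type Nova2 litters, as were the mean levels of Sema6d, Plxna2, Plxna3, Sema6a, Plxna1 and Nrp2. Those of Sema3a, Sema3c, Plxna4 and Nrp1 were lowest in other groups. The part of these cells in the member values was not tested, and in tissue RNA fewer cells of a type and less RNA per cell cannot be told apart.

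The wider pathway was described by lists of other semaphorins, plexins, co-receptors and intracellular mediators, with 65 genes beside the members, of which 64 were tested. In Nova2-/- cortex, 10 were higher and 5 lower at an unadjusted p under 0.05, where 10.1% of all genes were higher and 9.06% lower. An FDR under 0.05 at any fold change was found in 1 of the 64, near the share of 1.06% over all genes, and the median log2 fold change was 0.04. That gene was Kdr, which encodes a VEGF receptor that also acts with plexins and neuropilins. Kdr gave 50.5, 48.5 and 57.4 CPM in wild type and 84.3, 82.3 and 99.4 CPM in Nova2-/- cortex, with no overlap (edgeR, log2 fold change 0.78 ± 0.105, adjusted p = 0.0239). Such separation, higher in the knockout, was found in 13.5% of all genes. The adjusted p of Kdr was between 0.0822 and 0.147 when any 1 mouse other than wild-type replicate 3 was left out. In those fits only 0.0439% to 0.164% of all genes had an FDR under 0.05. With all 6 wild-type mice as controls the log2 fold change of Kdr was 0.64 ± 0.0989 (adjusted p = 0.00850). By list, 5 of 9 plexins were higher and 0 lower at that p, 2 of 20 semaphorins were higher and 1 lower, 3 of 10 co-receptors were higher and none lower, and 4 of 33 mediators went each way, the members included. For semaphorins and mediators these counts are near the shares over all genes, 10.1% higher and 9.06% lower.

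In Nova1-/- cortex, 0 of the 64 had an FDR under 0.05 by edgeR's quasi-likelihood test, 1 was higher and 5 were lower at an unadjusted p under 0.05, where 3.77% of all genes were higher and 3.67% lower, and the median log2 fold change was -0.05. The smallest p was that of Kdr, with 61.1, 59.7 and 63.5 CPM in wild type and 54.2, 47.0 and 41.1 CPM in Nova1-/- cortex (-0.37 ± 0.0898, adjusted p = 0.422). Sema4c, a transmembrane semaphorin (0.19 ± 0.0665, adjusted p = 0.587), and Sema3d, a secreted one (-0.26 ± 0.104, adjusted p = 0.650), came next. For Kdr the 3 knockout mice all lay below the 3 wild-type mice, and the share of all genes that did so is not given here. The difference between the knockouts' changes in Kdr was 1.14 ± 0.145 on the log2 scale (adjusted p = 0.00193), and it was between 1.04 and 1.25 with an adjusted p of at most 0.0104 when any 1 of the 12 mice was left out. Endothelial markers, which belong to the cells that carry most Kdr, summed to 182 to 232 CPM in the wild-type Nova2 litters, 223 to 228 CPM in Nova2-/- cortex, 185 to 189 CPM in the wild-type Nova1 litters and 169 to 194 CPM in Nova1-/- cortex. These sums overlapped between each knockout and its littermates. In the Nova2 litters this was through wild-type replicate 3 (232 CPM), with wild-type replicates 1 and 2 at 182 and 190 CPM. By gene, in Nova2-/- cortex 3 of 10 endothelial markers were higher and 1 lower at an unadjusted p under 0.05 (edgeR). Over all genes 10.1% were higher and 9.06% lower. Of the 10, 7 had estimates above 0, with a median log2 fold change of 0.102. The part of endothelial cells in the Kdr values was not tested. Between the wild-type litters, L1cam, an adhesion molecule that joins NRP1 in SEMA3A signalling, was lower in the Nova2 litters (-0.41 ± 0.0787, adjusted p = 0.0356), where 3.03% of all genes had an FDR under 0.05. Its adjusted p was above 0.05 (up to 0.184) when any 1 mouse other than wild-type replicate 3 was left out. In those fits only 0.0187% to 0.566% of all genes had an FDR under 0.05.

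Splicing events were listed for 8 of the 75 genes of these lists, with Sema6d as the 1 semaphorin among 20, and none for the 9 plexins or 2 neuropilins. The others were the adhesion co-receptors Chl1 and Nrcam and the mediators Arhgef11, Arhgef12, Mical3, Rap1gap and Rock1. No share of all genes with a listed event was computed here, so these counts are not read as many or few. Nrcam, a binding partner of NRP2, had 4 events with ΔI in Nova2-/- cortex from -0.149 to 0.838, against 0.00470 to 0.0530 in Nova1-/- cortex. Mical3, a member of the family of redox enzymes that act below plexins on actin, was like Sema6d in having opposite directions in the cortices, with ΔI of its 4 events from -0.257 to -0.245 in Nova2-/- and from 0.175 to 0.269 in Nova1-/-. In Nova1-/- midbrain and hindbrain Mical3 was near 0 (0.00150 to 0.00530), where Sema6d was not. Rock1, a kinase that plexin signals reach through RHOA, had 1 event, with ΔI of 0.298 in Nova2-/- and 0.0789 in Nova1-/- cortex, and of 0.195 in Nova1-/- midbrain and hindbrain. Arhgef11 (3 events) and Arhgef12 (9 events), exchange factors that bind B-type plexins, had ΔI below 0 in every event in Nova2-/- cortex, from -0.291 to -0.107, and from -0.0332 to 0.0101 in Nova1-/- cortex. Chl1 had 4 events from -0.335 to 0.270 and Rap1gap 1 event of -0.205 in Nova2-/- cortex, all within 0.0139 of 0 in Nova1-/- cortex.

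Some genes followed single members closely over the 12 cortices. Among 16210 genes, the highest Pearson correlations of log2 CPM with Sema6d were those of Thbs2 (0.976), Huwe1 (0.959) and Tril (0.934). For Plxna4 they were 2900026A02Rik (0.953), Bach2 (0.931) and Repin1 (0.922), and for Nrp1 they were Igfbpl1 (0.975), Haus3 (0.957) and Smc4 (0.956). The points share litters, libraries and tissue makeup, so these correlations describe the 12 mice and carry no test.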

How the data were processed

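Total RNA from E18.5 tissue was depleted of ribosomal RNA. TruSeq libraries were sequenced from both ends, and the authors aligned the reads with OLego. The authors deposited expected counts per gene for 12 cortices, without normalization. The counting program, annotation and use of strand are not given in the sources used here, so overlapping genes may share reads. The deposited tables also hold the authors' log2 fold changes and FDR, that is adjusted p-values, which were not used. ΔI was deposited as a score from -1 to 1 per event, 1 value per tissue, on mm9.

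Counts were rounded and tested with edgeR 4.0.16 in R 4.3.3 (TMM, filterByExpr, quasi-likelihood test, Benjamini-Hochberg adjustment over all genes tested), 6 mice per fit and 12 for the difference between knockouts. DESeq2 1.42.0 was an alternative. Errors of log2 fold changes are SEs. P-values measure the spread between 3 mice per group. Wild-type mice were placed with a set of litters from their labels and the methods of the study. The mice were separate embryos, and no 2 columns were identical. One listed mediator, Fer, was not analysed here, and 1 marker gene is not reported here. Events were placed on exons of the GENCODE annotation of mm9 by the positions in their names, with Python 3.11.15 and biopython 1.88. Motifs were counted on the sense strand, overlapping matches included. The scripts were tested on simulated data. The genes named are the 10 members, other pathway genes with an FDR under 0.05 or else the 3 with the smallest p per knockout, those with listed events, the 3 genes most like each of Sema6d, Plxna4 and Nrp1, and Nova1 and Nova2. Members and lists were chosen with earlier results of these data known.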

Additional observations from a re-analysis of the deposited data

Results flagged for a closer look

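The change of Kdr, a VEGF receptor that works with plexins and neuropilins, differed between the knockouts by the test of the difference itself. The log2 change in Nova2-/- cortex minus that in Nova1-/- cortex was 1.14 ± 0.145 (SE, edgeR's quasi-likelihood test, Benjamini-Hochberg adjustment, adjusted p = 0.00193). In Nova2-/- cortex 3 of 3 mice lay above all of their littermates, as in 13.5% of all genes. In Nova1-/- cortex 3 of 3 lay below all of theirs, and the share of all genes that did so is not given here. Both sets of wild-type mice enter this contrast. Kdr was lower in the wild-type Nova2 litters than in the wild-type Nova1 litters (-0.25 ± 0.0905, edgeR, adjusted p = 0.163).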

How the results depend on the processing

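The precision is limited by 3 mice per group, by the spread within the wild-type Nova2 litters, and for ΔI by values without replicates or depth. No member came near a log2 fold change of 1, so the counts of members called at both thresholds were 0 under every alternative and show nothing of stability. At any fold change, members called in Nova2-/- went from 0 to 3 with DESeq2 and to 4 without wild-type replicate 3. Without the fold change threshold 1 member was called between the wild-type litters, a limit of 0.2 on the size of ΔI left 0 Sema6d events, and 1 event per span left 2. The 17 estimates that changed sign all had adjusted p above 0.05. With all 6 wild-type mice as controls, Sema3c in Nova2-/- was 0.193 and Sema6a -0.0287. With 1 mouse left out, log2 fold changes ran from -0.212 to 0.0931 for Sema3c in Nova2-/-, and in Nova1-/- from -0.0922 to 0.00663 for Sema3a, -0.0197 to 0.116 for Sema3c, -0.102 to 0.0643 for Sema6a, -0.155 to 0.0199 for Plxna1, -0.0240 to 0.0370 for Plxna2 and -0.0777 to 0.0466 for Plxna4. RLE normalization and no filter changed no member's direction.

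Replicate numbers are shared by the Nova2-/- mice and their littermates, with correlations of deviations of 0.116, 0.00469 and 0.162 for the pairs, so pairing by number was not taken as given. With the replicate block, 0 members were called, 7 members had an unadjusted p under 0.05 in place of 4, and 220 genes had an FDR under 0.05 at any fold change in place of 166. No share of all genes at that unadjusted p in the block fit is given here, so the 7 are not read as many or few. Nova2-/- replicate 2 correlated best with wild-type replicate 1. The Nova1 litters share no numbers.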
